A study of Sorghum bicolor with 24 samples.

Results

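The genes described here are 6 lipoxygenase gene models of sorghum, Sb01g011030, Sb01g011050, Sb03g042440, Sb03g042450, Sb06g031350 and Sb08g023120, out of 34145 gene models in the deposited tables. They were taken by name, and all 6 had enough reads to enter the test of 22667 genes. The names are those that the study's pathway table lists among the lipoxygenase pathway genes differentially expressed in PEG-treated shoots of these same plants, so their calls in treated shoots are not independent evidence that such genes respond. Transcripts were measured by RNA-Seq in 24 libraries of the inbred line BTx623, 3 for each of 8 groups. Seedlings grown in hydroponics were treated from day 8 for 27 h and harvested on day 9. The roots stood in Hoagland's solution, to which 20 μM abscisic acid (ABA) or the NaOH solution used as its control was added. Other plants received 20% polyethylene glycol (PEG), which lowers the water potential around roots, or H2O as its control, in the same way. The sample labels and the study's methods give different NaOH concentrations, and no test here uses either. Each replicate number was a separate experiment, RNA of 3 buckets of 10 plants was pooled in it, and a root library and the shoot library of the same treatment and number share their plants.

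Lipoxygenases are non-heme iron enzymes that add molecular oxygen to polyunsaturated fatty acids such as linoleic and linolenic acid. Their hydroperoxide products feed several branches: allene oxide synthase leads to jasmonates, hydroperoxide lyase to volatile aldehydes, and divinyl ether synthase to divinyl ethers. In plants these oxylipins are known for roles in wounding, defence, senescence and responses to water deficit. Members of the family differ in the fatty acid carbon they oxygenate and in whether they act in plastids or outside them. The study's pathway table assigns all 6 sorghum genes to its hydroperoxide lyase branch and to a divinyl ether branch, both named there for the same position of oxygenation. These data do not test that assignment.

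The members lie on 4 chromosomes of the sbi1 assembly. On chromosome 1, Sb01g011030 spans 9916989 to 9920932 and Sb01g011050 spans 9936792 to 9941610. They are separated by 15859 bases, and a further model that the study annotates as a lipoxygenase, Sb01g011040 (9923147 to 9930173), lies between them. On chromosome 3, Sb03g042440 (69832398 to 69836229) and Sb03g042450 (69862860 to 69866418) are 26630 bases apart, with 2 other gene models between them. Sb06g031350 lies on chromosome 6 at 59743518 to 59747237, and Sb08g023120 on chromosome 8 at 55269624 to 55273080. Their exons sum to 2835 to 3195 bases. Only reads with a single match in the genome were counted, without regard to strand, so stretches that are identical between family members contributed to none of them.

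Libraries held 12891739 to 22840516 reads on exons (median 15352198). The 9 libraries base-called with the later software (every replicate 3 library, and in the NaOH shoots also replicate 2) held at least 19955618 and the other 15 at most 15915663. NaOH shoots replicate 2 also carries another file header (032610) than the other replicate 2 libraries (121009). It was kept as replicate 2 in the pairs and in the fits with a replicate term. The tissue labels were checked with 17 genes annotated as chlorophyll a-b binding, photosystem I or small Rubisco subunit proteins. All 17 were higher in each shoot library than in any root library, and their summed level was 22200 to 65600 RPKM in shoots and 7.27 to 50.1 RPKM in roots. In shoots this sum was 56300 to 59500 RPKM with H2O and 29500 to 37500 with PEG, and 56500 to 65600 with NaOH and 22200 to 27700 with ABA. It therefore moved with both treatments, and its part in the differences below was not tested. These genes were taken from the study's annotation of its differentially expressed genes, so a move with treatment was favoured in advance. Over all libraries, the only root gene on the list, a high-affinity nitrate transporter, did not separate the tissues (0.488 to 4.37 RPKM in roots, 0.808 to 2.99 in shoots). In the controls it ran opposite to its label, lower in roots than in shoots without overlap. It had 0.488 to 0.709 RPKM in H2O roots and 1.65 to 2.31 in H2O shoots. With NaOH it had 0.515 to 0.799 RPKM in roots and 2.55 to 2.99 in shoots. In whole organs, fewer cells of a type and less RNA per cell cannot be told apart.

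The basal levels divided the members into root genes, shoot genes and a gene that was not called between the organs. Levels are given throughout as RPKM, the authors' read density scaled for exon length and library size, because it can be compared between genes. Sb01g011050 was the most abundant member in control roots, with 463.5, 505.8 and 638.6 RPKM in replicates 1, 2 and 3 of the H2O roots and 523.4, 395.5 and 590.0 RPKM in the NaOH roots. In control shoots it reached 42.4, 84.6 and 54.0 RPKM with H2O and 84.8, 91.4 and 64.3 RPKM with NaOH. Every root library was thus above every shoot library. The edgeR quasi-likelihood test, fitted to all 24 libraries with Benjamini-Hochberg adjustment, put the gene 5.98-fold higher in H2O roots than in H2O shoots (log2 2.58, SE 0.24, adjusted p = 6.49e-09) and 4.07-fold higher with NaOH (log2 2.03, SE 0.23, adjusted p = 1.73e-07). By RPKM it ranked between the 57th and the 136th gene model of a control root library.

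Sb03g042440 had 300.0, 285.2 and 339.1 RPKM in H2O roots and 343.0, 231.5 and 260.5 RPKM in NaOH roots. Its control shoots held 5.76, 38.4 and 10.1 RPKM with H2O and 29.3, 40.1 and 21.1 RPKM with NaOH. The tissues did not overlap, but replicate 2 of the H2O shoots stood several times above the other H2O shoot libraries. The root level was 11.8-fold higher with H2O (log2 3.56, SE 0.45, edgeR adjusted p = 6.36e-07), and log2 4.63 without that library. With NaOH the difference was 5.97-fold (log2 2.58, SE 0.43, adjusted p = 2.34e-05).

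Sb03g042450, the other chromosome 3 gene, showed 241.8, 225.8 and 254.8 RPKM in H2O roots and 22.1, 34.6 and 26.4 RPKM in H2O shoots. With NaOH it had 236.9, 159.8 and 263.1 RPKM in roots and 34.4, 40.9 and 32.6 RPKM in shoots. It was 5.81-fold and 3.97-fold higher in roots (log2 2.54 and 1.99, SE 0.23 for both, edgeR adjusted p = 5.65e-09 and 1.56e-07). These 3 genes made up nearly all of the summed level of the 6 members in control roots.

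The shoot genes were Sb01g011030 and Sb06g031350. Sb01g011030 held only 5 to 14 reads in each of the 12 root libraries (0.0912 to 0.266 RPKM), whatever the treatment. Control shoots gave 7.52, 4.76 and 7.40 RPKM with H2O and 19.4, 4.16 and 5.04 RPKM with NaOH, the first NaOH library being well above the others. The fitted difference was 71.0-fold lower in H2O roots than in H2O shoots (log2 -6.15, SE 0.56, edgeR adjusted p = 5.72e-09). It was 82.5-fold lower with NaOH (log2 -6.37, SE 0.55, adjusted p = 2.11e-09), and log2 -5.34 without NaOH shoots replicate 1. Sb06g031350 held 1.18 to 1.42 RPKM in H2O roots and 3.40, 14.9 and 6.80 RPKM in H2O shoots. It was 9.66-fold lower in roots with H2O (log2 -3.27, SE 0.33, edgeR adjusted p = 2.06e-08), and log2 -2.65 without H2O shoots replicate 2, its highest control library. With NaOH, 0.831 to 1.20 RPKM in roots faced 7.57, 9.62 and 8.19 RPKM in shoots, a 13.3-fold difference (log2 -3.73, SE 0.33, adjusted p = 3.96e-09).

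Sb08g023120 alone was not called between the control tissues. It had 5.86, 6.73 and 10.1 RPKM in H2O roots and 4.76, 6.83 and 6.17 RPKM in H2O shoots, and the groups overlapped. The fitted root-to-shoot differences were log2 -0.23 (SE 0.22, edgeR adjusted p = 0.373) with H2O and log2 -0.34 (SE 0.22, adjusted p = 0.173) with NaOH. Scaled by library size alone, they turned to log2 0.39 and 0.33. That scaling also moved the median of all genes from 0.10 to 0.73 with H2O and from 0.11 to 0.78 with NaOH, so relative to the median the gene stayed below it. With single libraries left out, the fitted differences ran from log2 -0.515 to -0.066 with H2O and from -0.656 to -0.167 with NaOH. The lowest edgeR adjusted p was then 0.0479 with H2O and 0.0112 with NaOH, at differences under the limit for a call. In all, 5 of the 6 members were called in each basal comparison, 3 of them higher in roots and 2 lower. Of all genes tested, 35.3% were called with H2O (17.6% higher and 17.8% lower in roots) and 35.7% with NaOH (17.4% higher and 18.3% lower). The median log2 difference of the members was 1.16 with H2O and 0.82 with NaOH. The control shoots used here were also the controls behind the study's lists for treated shoots. The basal differences are therefore not wholly independent of the choice of genes. Calls required an adjusted p below 0.05, a change of 1 or more on the log2 scale in either direction and, except for differences between responses, a median depth of 2X or more in one group or the other.

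**Figure D1:**
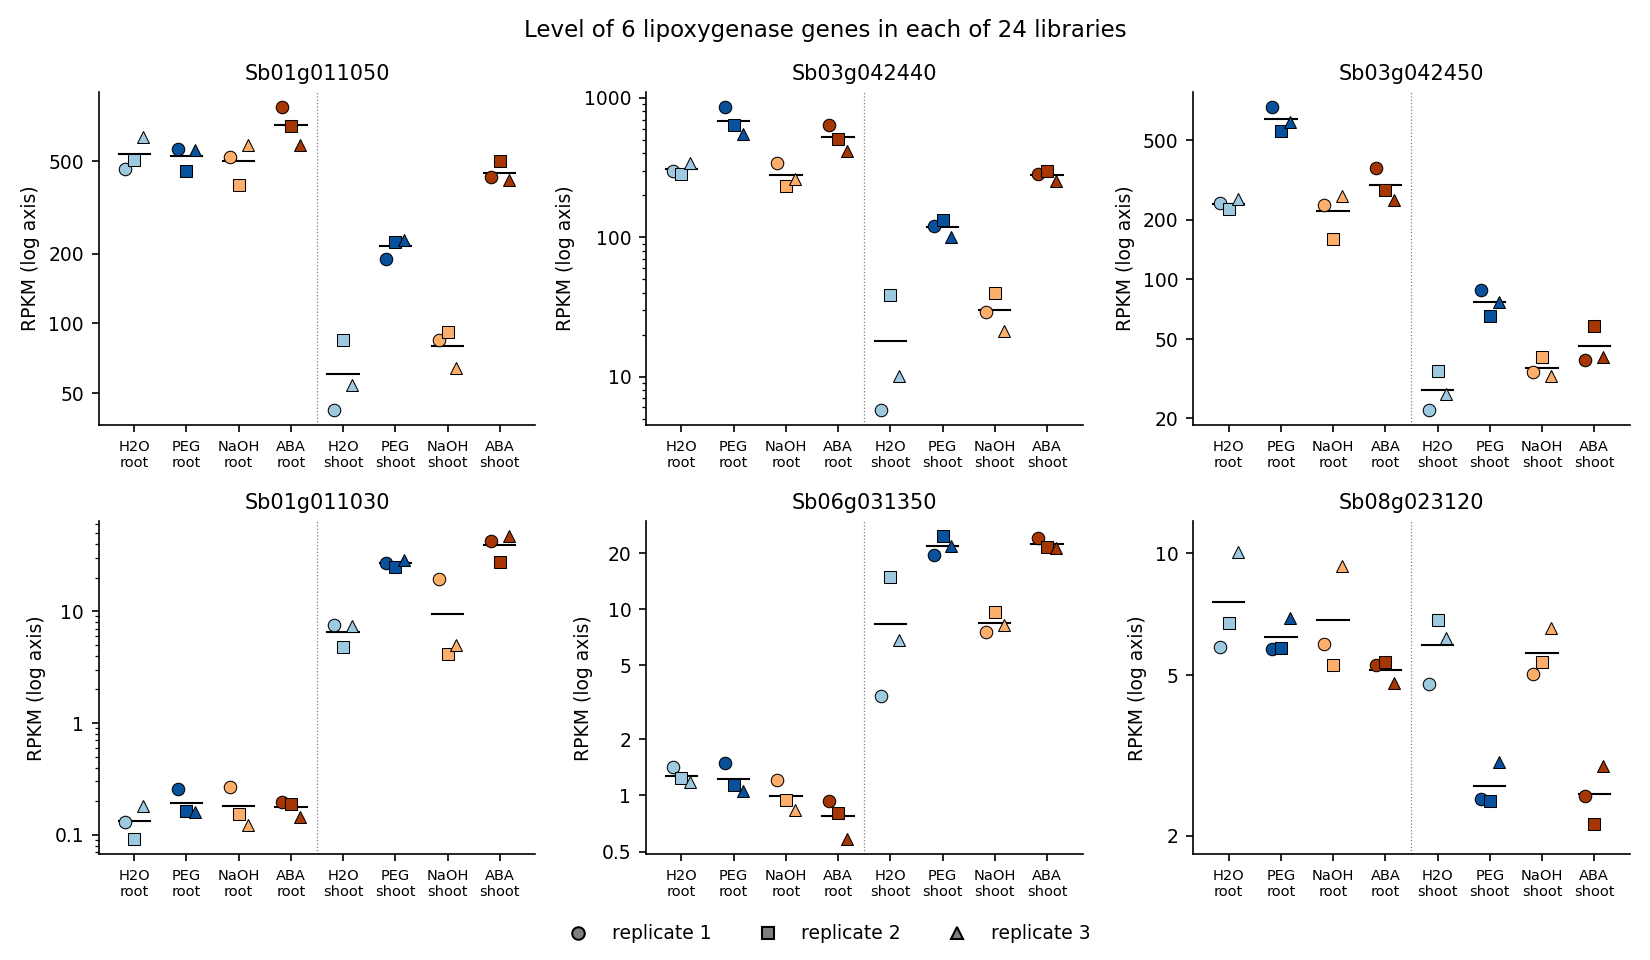
RPKM (log axis) of each of the 6 lipoxygenase genes in all 24 libraries, by treatment and organ, with 1 point per library, shapes for the replicate numbers and a line at the mean of 3. Sb01g011050, Sb03g042440 and Sb03g042450 sit higher in control roots than in control shoots, Sb01g011030 and Sb06g031350 sit lower, and replicate 2 is the highest H2O shoot library for 5 of the 6 genes.

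ABA raised 4 of the 6 members in shoots and lowered 1, whereas 7.18% of all genes tested were called, 3.16% higher and 4.01% lower. The study lists these same 5 for its ABA-treated shoots, and the count therefore describes its list. The median log2 change of the members was 1.596, and that of all genes -0.03. Sb03g042440 had the largest change of the 6. It went from 29.3, 40.1 and 21.1 RPKM in NaOH shoots to 286.8, 298.7 and 253.8 RPKM in ABA-treated shoots, with no overlap, an 8.55-fold rise (log2 3.10, SE 0.44, edgeR adjusted p = 4.28e-05). Sb01g011050 rose 5.14-fold, from 84.8, 91.4 and 64.3 RPKM to 427.2, 498.8 and 414.8 RPKM (log2 2.36, SE 0.24, adjusted p = 7.5e-07). Its ABA-treated shoot libraries thus lay inside the range of the NaOH roots by RPKM, 395.5 to 590.0. By TMM-normalized reads, the scale of the tests, they held 28830 to 37520 and the NaOH roots 19170 to 30470, so the shoots reached above that range.

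The shoot genes rose with ABA as well. Sb01g011030 reached 42.3, 27.7 and 46.8 RPKM, from 19.4, 4.16 and 5.04 RPKM in NaOH shoots (log2 1.91, SE 0.39, edgeR adjusted p = 0.00139). Without NaOH shoots replicate 1, which holds the value of 19.4, the log2 change was 2.95. Sb06g031350 rose from 7.57, 9.62 and 8.19 RPKM to 24.3, 21.6 and 21.3 RPKM (log2 1.28, SE 0.29, adjusted p = 0.00315). Sb08g023120 fell, from 5.02, 5.40 and 6.55 RPKM to 2.51, 2.14 and 2.97 RPKM, and its groups did not overlap (log2 -1.28, SE 0.23, adjusted p = 0.000383). Sb03g042450 was the exception among the root genes: its 39.5, 58.6 and 40.6 RPKM in ABA-treated shoots overlapped the 34.4, 40.9 and 32.6 RPKM of NaOH shoots (log2 0.25, SE 0.22, adjusted p = 0.454). When all libraries of replicate 3 were left out, Sb01g011030 (adjusted p = 0.111) and Sb06g031350 (adjusted p = 0.0859) were no longer called, which left 3 called members.

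PEG raised 5 members in shoots and lowered 1, so all 6 were called where 4.75% of all genes were, 2.74% higher and 2.01% lower. The median log2 change of the members was 1.47 and that of all genes 0.003. Being called in this comparison is what put the 6 names on the study's list, so the count only describes that list. Sb03g042440 rose from 5.76, 38.4 and 10.1 RPKM in H2O shoots to 120.6, 133.6 and 101.0 RPKM in PEG-treated shoots (log2 2.56, SE 0.43, edgeR adjusted p = 0.000388), and by log2 3.64 without H2O shoots replicate 2. Sb01g011050 rose from 42.4, 84.6 and 54.0 RPKM to 190.2, 225.0 and 228.4 RPKM (log2 1.65, SE 0.23, adjusted p = 6.47e-05). Unlike with ABA, its treated shoots stayed below every control root library.

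Sb03g042450, which was not called with ABA in shoots, rose with PEG there. It went from 22.1, 34.6 and 26.4 RPKM to 88.5, 65.5 and 77.2 RPKM, with no overlap (log2 1.29, SE 0.22, edgeR adjusted p = 0.000518). Sb01g011030 rose from 7.52, 4.76 and 7.40 RPKM to 27.2, 24.9 and 28.9 RPKM (log2 1.82, SE 0.39, adjusted p = 0.00317). Sb06g031350 rose from 3.40, 14.9 and 6.80 RPKM to 19.5, 24.6 and 21.7 RPKM (log2 1.22, SE 0.29, adjusted p = 0.00622). Its change was log2 1.84 without H2O shoots replicate 2 and log2 0.88, under the limit of 1, without H2O shoots replicate 1. Sb08g023120 fell again, from 4.76, 6.83 and 6.17 RPKM to 2.46, 2.44 and 3.05 RPKM (log2 -1.35, SE 0.23, adjusted p = 0.000368).

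The PEG calls of some members depended on which libraries shared the fit. With the 6 libraries of this comparison alone, Sb03g042440 (adjusted p = 0.0709) and Sb06g031350 (adjusted p = 0.166) were not called. Without replicate 1, Sb03g042450 (adjusted p = 0.06) and Sb06g031350 (adjusted p = 0.0564) lost their calls, and without replicate 3, Sb01g011030 (adjusted p = 0.0748) and Sb06g031350 (adjusted p = 0.179) lost theirs.

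In roots, ABA gave no called member. By edgeR 0 of the 6 were called and by DESeq2 0, where edgeR called 13.6% of all genes tested (5.44% higher and 8.21% lower). At an unadjusted p under 0.05 there was 1, Sb08g023120 (log2 -0.48, SE 0.22, adjusted p = 0.0997). Sb03g042440 had 343.0, 231.5 and 260.5 RPKM in NaOH roots and 636.6, 510.4 and 416.7 RPKM in ABA-treated roots. These groups did not overlap, but the change of log2 0.85 (SE 0.41) did not pass the test (edgeR adjusted p = 0.123). Sb01g011050 gave log2 0.45 (adjusted p = 0.142), with 855.1, 705.9 and 587.3 RPKM in ABA-treated roots overlapping the NaOH roots. For Sb03g042450 and Sb06g031350 the changes were log2 0.38 and -0.43 (adjusted p = 0.208 and 0.402). At 8 to 14 reads per library with NaOH and 10 to 11 with ABA, the change of Sb01g011030 carried a wide error (log2 -0.07, SE 0.75, adjusted p = 0.964), and a moderate change was not detectable at this depth.

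With PEG, 1 of the 6 was called in roots, and 3.49% of all genes (2.04% higher and 1.45% lower). Sb03g042450 rose from 241.8, 225.8 and 254.8 RPKM in H2O roots to 735.4, 560.4 and 618.9 RPKM in PEG-treated roots (log2 1.38, SE 0.22, edgeR adjusted p = 0.000469). Without replicate 1 the adjusted p was 0.0505. Its chromosome 3 neighbour Sb03g042440 went from 300.0, 285.2 and 339.1 RPKM to 858.9, 641.0 and 550.8 RPKM, again with no overlap, and its log2 change of 1.12 (SE 0.41) had an adjusted p of 0.108. In the fit of these 6 libraries alone, Sb03g042440 was called as well (log2 1.13, adjusted p = 0.00221). The other 4 members had log2 changes of 0.41 (Sb01g011030), -0.05 (Sb01g011050), -0.08 (Sb06g031350) and -0.32 (Sb08g023120), none of which passed (lowest adjusted p 0.479).

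**Figure D2:**
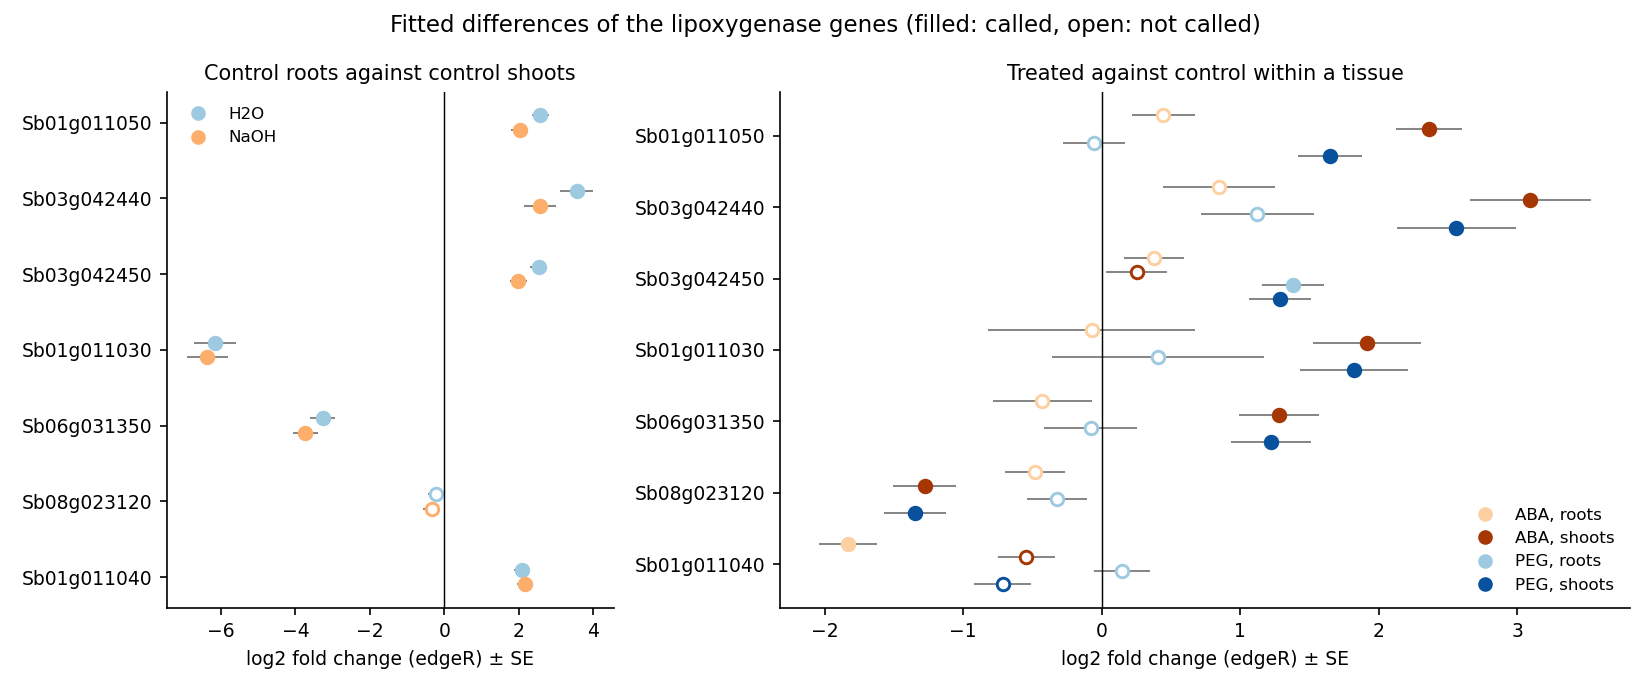
Fitted log2 fold changes with their SE for the 6 members and Sb01g011040, between control roots and control shoots (left) and between treated and control libraries within each organ (right), 3 libraries per group. Filled points were called and open points were not. For Sb01g011050 the root responses sit at -0.05 and 0.45 and the shoot responses at 1.65 and 2.36, while Sb03g042450 rose with PEG in both organs.

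Whether the response differed between organs was tested as an interaction in the same fit. The names come from lists of responses in treated shoots, 6 for PEG and 5 of them for ABA, and the interactions reuse those shoot libraries. A response lower in roots than in shoots was thereby favoured in advance, and the counts describe the listed genes. The ABA response was lower in roots than in shoots for 3 members, where 9.6% of all genes differed (4.6% lower and 5% higher in roots). The root-minus-shoot difference was log2 -1.92 for Sb01g011050 (SE 0.32, edgeR adjusted p = 0.000357), log2 -2.25 for Sb03g042440 (SE 0.58, adjusted p = 0.0119) and log2 -1.71 for Sb06g031350 (SE 0.46, adjusted p = 0.0154). The last was at an adjusted p of 0.0522 without ABA roots replicate 3. With all libraries of replicate 1 left out, Sb03g042440 lost its call (adjusted p = 0.0763), and without those of replicate 3, Sb03g042440 and Sb06g031350 did (adjusted p = 0.184 and 0.201). Sb01g011030 gave log2 -1.99 (SE 0.85) with an adjusted p of 0.136. With the replicate block, a term for the replicate number, it was log2 -2.15 (adjusted p = 0.0465), DESeq2 called it as well (adjusted p = 0.0393), and without NaOH shoots replicate 1 it was log2 -3.02 (adjusted p = 0.000373). Sb08g023120 gave log2 0.80 (adjusted p = 0.0993), and log2 1.11 without NaOH roots replicate 3 (adjusted p = 0.0128). Sb03g042450, which was called with ABA in neither organ, was not called here.

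For PEG the organs differed for 1 member, with 4.09% of all genes called (2.06% lower and 2.02% higher in roots). This was Sb01g011050, at log2 -1.70 (SE 0.32, edgeR adjusted p = 0.00324): it rose 3.13-fold in shoots and did not pass the test in roots. Without the libraries of replicate 1 or of replicate 3 the adjusted p was 0.11 and 0.104. Sb03g042440 and Sb06g031350 gave log2 -1.44 and -1.30 (adjusted p = 0.145 and 0.0835). Without H2O shoots replicate 2 both were called, at log2 -2.52 (adjusted p = 0.000472) and log2 -1.92 (adjusted p = 0.000893). Sb08g023120 gave log2 1.03 (SE 0.31, adjusted p = 0.0541). It was called with the replicate block (log2 1.07, adjusted p = 0.00736), by DESeq2 (adjusted p = 0.017), without H2O roots replicate 3 (log2 1.32, adjusted p = 0.0152) and without PEG shoots replicate 3 (log2 1.17, adjusted p = 0.0489). Sb01g011030, with its few root reads, and Sb03g042450, which rose in both organs, were not called.

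ABA and PEG responses were compared within each organ in the same way, each against its own control. In roots the ABA response of Sb03g042450 was below its PEG response by log2 -1.004 (SE 0.31, edgeR adjusted p = 0.0313), the only member called, with 12.2% of all genes called (8.18% lower and 3.99% higher with ABA). The difference lies just past the limit of 1. Leaving out any one of 7 libraries ended this call: ABA roots replicate 2 or 3, PEG roots replicate 1, H2O roots replicate 1 or 2, or NaOH roots replicate 1 or 3. The adjusted p then reached at most 0.0984 and the difference stayed at log2 -0.83 or further below 0. Without all libraries of replicate 1 the difference was log2 -0.984 (adjusted p = 0.188). Without those of replicate 3 it was log2 -0.794 (adjusted p = 0.376). With library sizes alone or only the root libraries in the fit, the difference was log2 -0.97, under the limit. For its neighbour Sb03g042440 it was log2 -0.28, and for Sb01g011050 log2 0.50 (adjusted p = 0.338). Sb01g011030, Sb06g031350 and Sb08g023120 were not called either. In shoots 0 members were called by edgeR, 2 had an unadjusted p under 0.05, DESeq2 called 1, and 1.79% of all genes were called by edgeR (1.05% lower and 0.746% higher with ABA). The 2 were Sb03g042450, at log2 -1.04 (SE 0.31, adjusted p = 0.0834), and Sb01g011050, at log2 0.72 (SE 0.32, adjusted p = 0.242). Sb03g042450 was the gene that DESeq2 called (adjusted p = 0.0314), and edgeR called it without H2O shoots replicate 2 (adjusted p = 0.0259) or ABA shoots replicate 2 (adjusted p = 0.0309). The shoot comparison reuses the libraries behind the study's lists. Sb03g042450 is on the list for PEG but not on that for ABA, so a lower ABA response was favoured in advance. The other members, Sb01g011030, Sb03g042440, Sb06g031350 and Sb08g023120, did not reach an unadjusted p of 0.05.

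The NaOH and H2O controls were compared to see whether the controls themselves differed. The edgeR and DESeq2 tests called 0 members in either organ, and edgeR called 0% of all genes. At an unadjusted p under 0.05, edgeR had 0 members in roots and 1 in shoots, Sb01g011050, among 361 and 569 genes. Sb03g042440 was at log2 0.84 in NaOH shoots over H2O shoots (SE 0.41), and at log2 1.92 without H2O shoots replicate 2 (adjusted p = 0.0319). Sb01g011030, Sb03g042450, Sb06g031350 and Sb08g023120 were above an unadjusted p of 0.05 in both organs.

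The ratio of the chromosome 1 genes was compared within each library, where scaling between libraries cancels. It was taken as the log2 ratio of RPKM with 0.1 RPKM added to each. Sb01g011050 over Sb01g011030 averaged 10.99 ± 0.38 (SD, n = 6) in control roots and 3.27 ± 0.93 (n = 6) in control shoots, and the 6 root libraries were above their paired shoot libraries. The difference of 7.72, a 211-fold larger ratio in roots, had p = 0.0312 in a two-sided exact sign-flip test over the 6 pairs, the smallest it can give, and 0.156 after adjustment over the 10 ratio tests. The H2O and NaOH pairs of a number come from the same experiment, and with the 3 experiments as units the exact p was 0.25, again the smallest possible. The root values rest on 5 to 14 reads of Sb01g011030, so the size depends on the amount added: the difference was 8.365 with 0.01 RPKM and 5.695 with 1 RPKM. In shoots, treatment moved this ratio little beside the spread between libraries. It was 3.55 ± 0.54 in ABA-treated and 3.40 ± 1.17 in NaOH shoots (difference 0.15, exact permutation p = 1), and 2.98 ± 0.18 in PEG-treated and 3.15 ± 0.86 in H2O shoots (difference -0.17, p = 0.9). In shoots, then, both genes of the pair rose, and the ratio of one to the other differed by less than its SD. The root difference with ABA was 0.51 (11.33 ± 0.15, and 10.82 ± 0.48 with NaOH). With PEG in roots it was -0.35 (10.82 ± 0.23, and 11.17 ± 0.19 with H2O). Both root differences exceeded the SDs of their groups, but the groups overlapped (exact permutation p = 0.3 and 0.2).

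The chromosome 3 genes parted with treatment in shoots instead. Both are on the study's list for PEG-treated shoots, but only Sb03g042440 is on its list for ABA-treated shoots. A larger ratio with ABA in shoots was thereby favoured in advance, and its value describes the listed genes. Sb03g042440 over Sb03g042450 gave log2 ratios of -0.23, -0.03 and -0.62 in replicates 1, 2 and 3 of the NaOH shoots and 2.85, 2.35 and 2.64 in ABA-treated shoots. The ratio was 7.51-fold larger with ABA (difference 2.91), without overlap, at an exact permutation p of 0.1, the smallest that 3 against 3 libraries allow (0.167 after adjustment). With PEG in shoots it moved from -1.92, 0.15 and -1.38 to 0.45, 1.03 and 0.39, a difference of 1.67 (exact permutation p = 0.1), and 2.27 without H2O shoots replicate 2. In roots the ratio stayed within 1 log2 unit of 0 in every library. It was 0.80 ± 0.06 with ABA and 0.35 ± 0.32 with NaOH, and 0.08 ± 0.22 with PEG and 0.35 ± 0.05 with H2O (exact permutation p = 0.1 for each). Between control tissues it was 0.35 ± 0.20 in roots and -0.67 ± 0.82 in shoots, higher in the root library of all 6 pairs (difference 1.02, exact sign-flip p = 0.0312, 0.156 adjusted, and 0.25 with the 3 experiments as units).

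**Figure D3:**
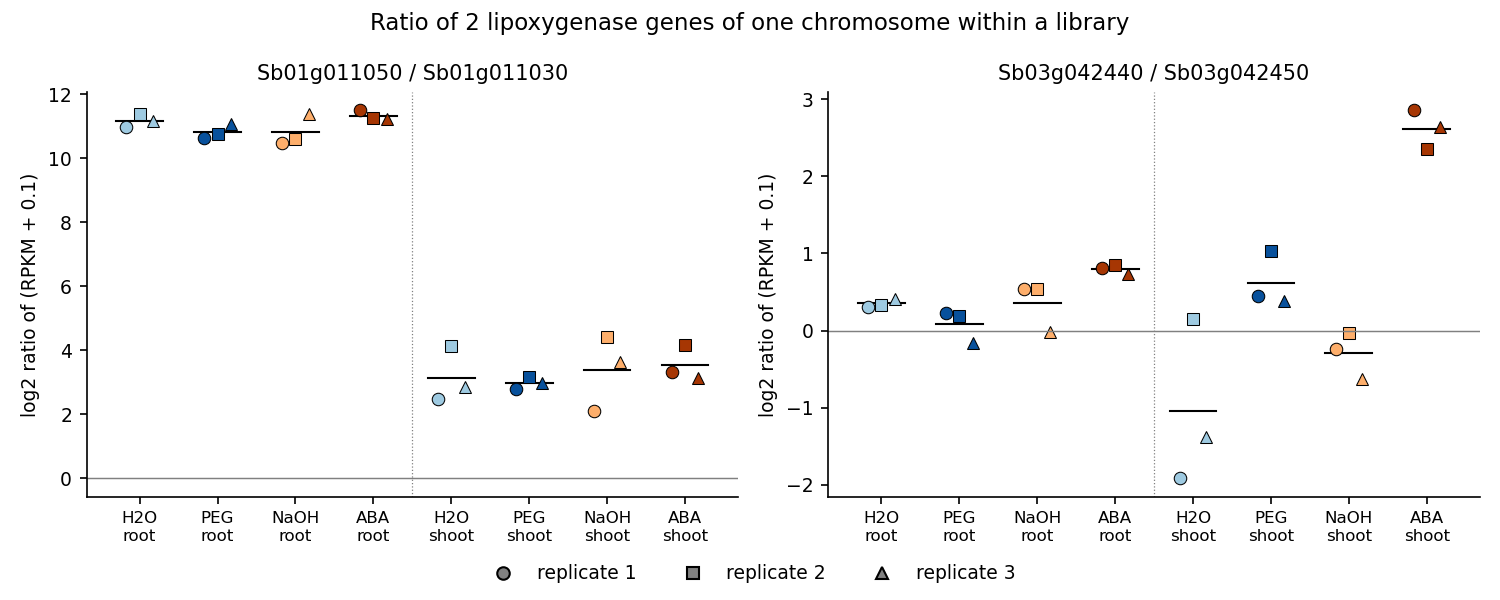
Within-library log2 ratio of (RPKM + 0.1) for Sb01g011050 over Sb01g011030 (left) and Sb03g042440 over Sb03g042450 (right) by treatment and organ, with 1 point per library and a line at the mean of 3. The chromosome 1 ratio separates roots from shoots, and the chromosome 3 ratio is highest in the ABA-treated shoots, at 2.35 to 2.85.

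The summed level of the 6 members shows how these changes add up. It was 1094 ± 130.0 RPKM (SD, n = 3) in H2O roots, 1009 ± 187 in NaOH roots, 1855 ± 273 in PEG-treated roots and 1542 ± 301 in ABA-treated roots. In shoots it was 126.9 ± 51.0 RPKM with H2O, 170.0 ± 28.4 with NaOH, 461.6 ± 13.9 with PEG and 836.9 ± 64.8 with ABA. As a share of all reads on exons, the 6 genes took 0.0555% ± 0.00926 in NaOH shoots and 0.278% ± 0.02 in ABA-treated shoots, and 0.0416% ± 0.0166 in H2O shoots and 0.153% ± 0.00505 in PEG-treated shoots. In roots they took 0.34% ± 0.0617 with NaOH and 0.518% ± 0.101 with ABA, and 0.368% ± 0.0446 with H2O and 0.616% ± 0.0891 with PEG. Sb01g011050 made up 45.8% to 52.5% of the sum in every control root library and 46.0% to 49.3% in every control shoot library, although the sum itself differed several-fold between the organs. PEG-treated roots were the only group in which it was not the leading member, at 28.5% ± 3.20 beside 36.6% ± 4.28 for Sb03g042440 and 34.4% ± 1.07 for Sb03g042450. In shoots, Sb03g042450 went from 21.4% ± 2.30 with NaOH to 5.49% ± 0.861 with ABA, and Sb03g042440 from 17.5% ± 3.01 to 33.4% ± 1.25. In any root library Sb01g011030 took at most 0.0239% and Sb06g031350 at most 0.14% of the sum, whereas in shoots their group means lay between 2.69% and 6.07% each.

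**Figure D4:**
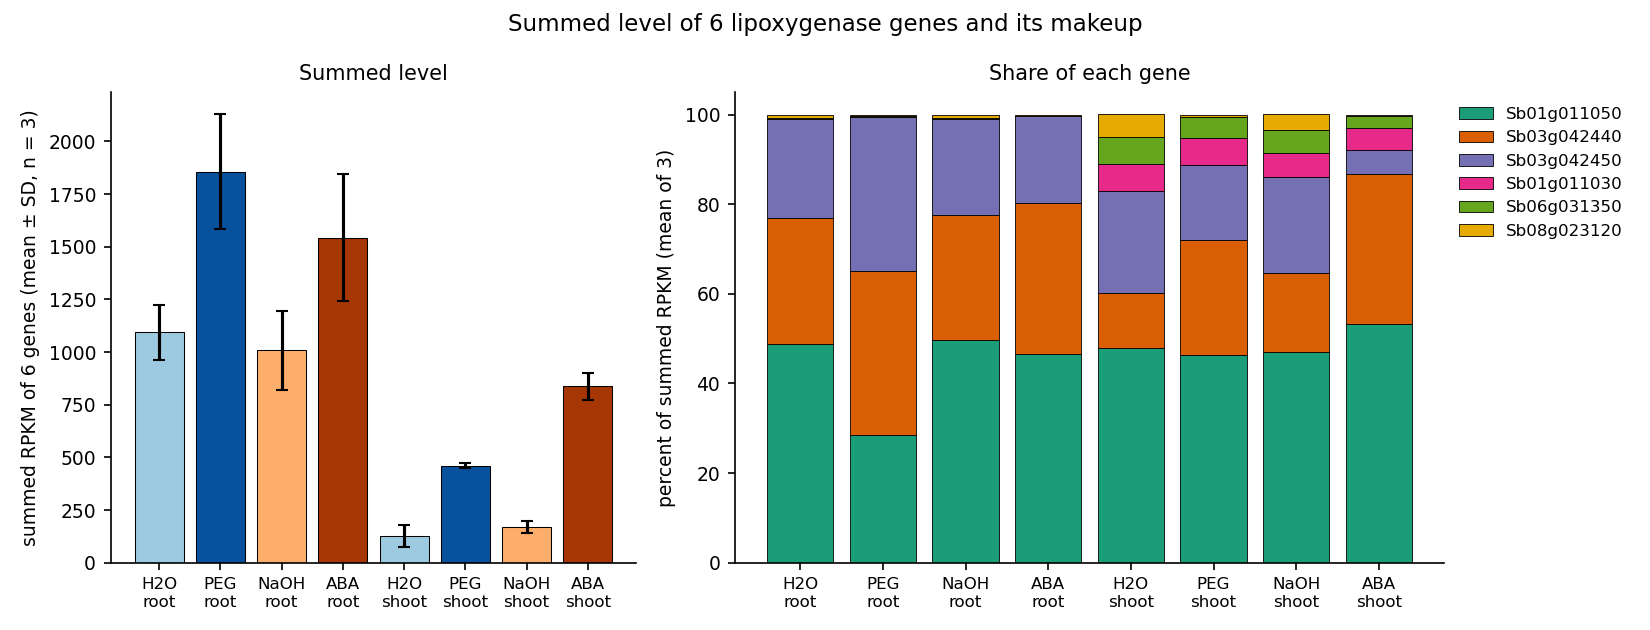
Summed RPKM of the 6 lipoxygenase genes by group (left, mean ± SD of 3 libraries) and the mean percent of that sum taken by each gene (right). The sum rises from 170.0 RPKM in NaOH shoots to 836.9 RPKM in ABA-treated shoots, where Sb03g042450 takes 5.49% of it.

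Across the 8 groups, the order of mean levels differed between members. By RPKM, Sb01g011050 ran from ABA-treated roots (716.1 ± 134 RPKM) through H2O, PEG-treated and NaOH roots to ABA-treated shoots (446.9 ± 45.4), and each of these neighbours overlapped the next. PEG-treated shoots and then the control shoots followed, with a gap before each step. By TMM-normalized reads, ABA-treated shoots (32060 ± 4750) stood second, after ABA-treated roots (34580 ± 6880) and above the other roots, and still overlapped both neighbours. Sb03g042440 and Sb03g042450 were both highest in PEG-treated roots, at 683.6 ± 158 and 638.2 ± 89.1 RPKM. For Sb03g042450 this group stood clear of the next, ABA-treated roots (298.8 ± 57.0), while for Sb03g042440 it overlapped ABA-treated roots (521.2 ± 110.0). ABA-treated shoots of Sb03g042440 came after H2O roots by RPKM, and by normalized reads (17310 to 22040) above them without overlap (13820 to 17010). Sb01g011030 and Sb06g031350 were highest in ABA-treated shoots (38.9 ± 9.99 and 22.4 ± 1.66 RPKM), overlapping PEG-treated shoots (27.0 ± 1.99 and 22.0 ± 2.58) in both genes. By normalized reads these groups of Sb01g011030 did not overlap (2177 to 3400 with ABA, 1634 to 2045 with PEG). Sb08g023120 reversed that order, with ABA-treated and PEG-treated shoots lowest and overlapping (2.54 ± 0.416 and 2.65 ± 0.345 RPKM) and the other 6 groups between 5.16 and 7.56 RPKM. Of those, H2O roots were highest by RPKM and H2O shoots by normalized reads (358.8 ± 114 and 420.5 ± 52.3, overlapping).

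Sb01g011040, the lipoxygenase model between the chromosome 1 genes, did not share the pattern of either. Like Sb01g011050 it was a root gene, with 168.4, 171.3 and 156.9 RPKM in H2O roots and 26.8, 22.3 and 28.1 RPKM in H2O shoots (log2 2.08, SE 0.21, edgeR adjusted p = 2.6e-08). With NaOH the difference was log2 2.17 (SE 0.21, adjusted p = 1.4e-08). ABA lowered it in roots, from 168.4, 150.7 and 243.1 RPKM to 50.5, 51.8 and 63.0 RPKM, without overlap (log2 -1.83, SE 0.21, adjusted p = 9.48e-07). No member was called in that comparison. Sb01g011040 was found through the study's annotation of its differentially expressed genes, so a call of it with treatment was favoured in advance. In shoots its changes were log2 -0.54 with ABA (adjusted p = 0.0635) and log2 -0.72 with PEG (adjusted p = 0.0214), under the limit of 1, and in PEG-treated roots log2 0.15 (adjusted p = 0.794). The ABA response in roots was below that in shoots by log2 -1.29 (SE 0.29, adjusted p = 0.00426) and below the PEG response in roots by log2 -1.98 (SE 0.29, adjusted p = 6.93e-05). The former lost its call without the libraries of replicate 1 (log2 -1.395, adjusted p = 0.0627) or of replicate 3 (log2 -1.07, adjusted p = 0.0827). The PEG response differed between organs by log2 0.86 (SE 0.29, adjusted p = 0.0794), which was called without replicate 2 (log2 1.06). ABA and PEG in shoots, and the controls, gave no call for this gene.

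Genes annotated downstream of the lipoxygenase step were looked at beside the members. They were taken after the fact from the study's annotation of its differentially expressed genes, so their changes are descriptions. Sb04g007640 is annotated as a cytochrome P450 of the CYP74A class, the class of allene oxide synthases. It had 6.69, 8.43 and 9.85 RPKM in H2O roots and 24.1, 16.3 and 22.2 RPKM with PEG, and 7.27, 4.82 and 13.0 RPKM in NaOH roots and 2.03, 1.57 and 2.14 RPKM with ABA. It was thus highest in PEG-treated roots, as were Sb03g042440 and Sb03g042450, and lower with ABA, where no member was called. In shoots it stayed between 0.590 and 1.69 RPKM in all 12 libraries. Sb03g032230, annotated as similar to a jasmonic acid carboxyl methyltransferase, the kind of enzyme that makes methyl jasmonate, had 0.0560 to 0.162 RPKM in NaOH shoots and 1.83, 2.79 and 2.06 RPKM in ABA-treated shoots. In roots it went the other way, from 7.96, 7.68 and 12.7 RPKM with NaOH to 2.79, 2.81 and 3.01 RPKM with ABA. With PEG it had 4.54, 3.75 and 5.66 RPKM in roots, against 8.24, 7.86 and 8.65 with H2O, and 0.418, 2.44 and 0.786 RPKM in shoots, against 0.196, 0.0738 and 0.0820. Control shoots held only 2 to 5 reads of Sb03g032230 per library. Unlike its ABA changes, its PEG changes were not called. In roots the edgeR adjusted p was 0.178, and in shoots the median depth was under 2X in both groups (0.977X with PEG). Sb05g027465, weakly similar to such an enzyme, had 0 reads in all 12 shoot libraries. In roots it held 2.58, 2.74 and 5.72 RPKM with NaOH and 0.174, 0.168 and 0.232 RPKM (3 to 6 reads) with ABA, and 1.91, 2.16 and 2.14 RPKM with H2O and 4.40, 3.73 and 3.39 RPKM with PEG. Its values were thus lower with ABA and higher with PEG than in the matching control roots, as were those of Sb04g007640. The PEG rise of Sb05g027465 was not called (log2 0.86, edgeR adjusted p = 0.142), whereas that of Sb04g007640 was (log2 1.30, adjusted p = 0.0115). NaOH roots of Sb05g027465 stood above its H2O roots by as much (log2 0.86).

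For each member, the genes with the most similar pattern were found by Pearson's r of log2 normalized counts over the 24 libraries. The libraries share tissues and treatments, so r mostly ranks likeness to a tissue pattern, and it is given without a test. Sb01g011050 and Sb03g042440 were among each other's closest 3 of all genes tested (r = 0.959), although they lie on different chromosomes. Sb05g022900, annotated as a PfpI family intracellular protease, was close to both (r = 0.966 with Sb03g042440 and 0.955 with Sb01g011050). Within the pairs r was lower, at 0.790 for Sb03g042440 with Sb03g042450 and -0.474 for Sb01g011050 with Sb01g011030. Sb01g011030 and Sb06g031350 were alike (r = 0.970), but other genes were nearer to each. For Sb01g011030 these were Sb05g024750 (r = 0.990), Sb10g012110, a glycine rich protein (r = 0.990), and Sb06g025060, a bHLH protein (r = 0.989). For Sb06g031350 they were Sb03g034860, Sb06g001870 and Sb10g006190 (r = 0.983, 0.982 and 0.979). The third genes for Sb01g011050 and Sb03g042440 were Sb07g024120 (r = 0.948) and Sb09g001610 (r = 0.952). Nearest to Sb03g042450 were Sb10g009610 (r = 0.966), Sb02g006210, annotated as a quinone reductase, and Sb04g029780 (r = 0.960 for both). Nearest to Sb08g023120 were Sb06g017790, Sb02g037280 and Sb06g015880 (r = 0.937, 0.934 and 0.904). Sb08g023120 had negative r with each of the other 5 members, from -0.466 to -0.052.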

How the data were processed

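The authors aligned 50-base reads to sbi1 with CASAVA 1.6 (ELAND), kept unique matches with up to 2 errors, and base-called with RTA 1.5 or 1.6. Per the file headers each table gives RPKM, aligned bases, depth and gene length. The deposited raw count is a count of aligned bases on exons, which was turned into reads by dividing by 50 and rounding to a whole number. Depth, a coverage signal computed by the authors, is bases per exon base. The authors' RPKM was used for levels and pair ratios only. The gene length, another value in the deposited tables, gave the exon lengths. No column of another series was used.

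The main test used edgeR 4.0.16 in R 4.3.3 (TMM factors, the low-count filter, quasi-likelihood test, 1 mean per group, all 24 libraries in 1 fit) and Benjamini-Hochberg adjustment over the 22667 genes kept. P-values are two-sided, and each SE was obtained by dividing the size of the log2 change by the root of its F statistic. Interactions have no depth limit. DESeq2 1.42.0 was an alternative. The code was tested on simulated data. Reads per library ranged from 12891739 to 22840516. At that depth roots held 5 to 14 reads of Sb01g011030 and 38 to 82 of Sb06g031350. Alternatives were other scaling, filters and limits, the aligned bases as deposited, the libraries compared alone, the replicate block, a base-caller term, DESeq2, an exact test and leaving out replicates or libraries.

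Replicate numbers pair samples, since the study states that each was a separate experiment. Deviations from group means of same-numbered libraries correlated at -0.03 to 0.58. Each member was named in every comparison, with the 3 genes most correlated with it. Tissue markers, Sb01g011040 and downstream genes came from the study's annotation of its differentially expressed genes. The reference table used here carries no product names, so a planned list of jasmonate genes by product name was empty. Members and lists were chosen with earlier results of these data known. Sb01g011030 is listed in the tables as Sb01g011030-1. Sequences were not analysed here.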

Additional observations from a re-analysis of the deposited data

Results flagged for a closer look

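The responses listed here differed between organs or between treatments by the interaction test of edgeR. The ABA response was lower in roots than in shoots for Sb01g011050 (log2 -1.92), Sb03g042440 (log2 -2.25), Sb06g031350 (log2 -1.71) and Sb01g011040 (log2 -1.29). For Sb01g011040 the sign has another meaning than for the members, because it fell in ABA-treated roots, while the members rose in ABA-treated shoots. The PEG response was lower in roots than in shoots for Sb01g011050 (log2 -1.70). Within roots, the ABA response was below the PEG response for Sb03g042450 (log2 -1.004) and Sb01g011040 (log2 -1.98). The members' names come from lists of genes called in treated shoots, so these differences between organs are not independent of the choice. Those of Sb01g011040 are not either, because it comes from the study's annotation of its differentially expressed genes. Groups of 3 libraries were not tested for outlying samples.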

How the results depend on the processing

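Of 413 recomputed values, 346 either kept the count of called members within 1.5 times or kept the direction of a pair ratio and its side of the threshold. For the treatment ratios, of 3 against 3 libraries, the exact permutation p cannot fall below 0.1. Their side of the threshold was therefore fixed in advance, and only their direction could change. Of 1283 recomputed changes of single genes, 1215 kept direction and call. The number called in ABA-treated shoots was 3 to 5 when a replicate number or library was left out, in PEG-treated shoots 4 to 6, in PEG-treated roots 0 to 1, for the ABA response between organs 2 to 4, for the PEG response between organs 0 to 3, for ABA against PEG 0 to 1 in roots and 0 to 1 in shoots, and for NaOH against H2O in shoots 0 to 1. In PEG-treated roots it was 2 with only the libraries compared and with the common-dispersion exact test. For the PEG response between organs it was 2 with DESeq2 size factors, the RTA version as a term, DESeq2 or the replicate block. The pairing by this block changed, besides, only the call of Sb01g011030 for the ABA response between organs. For ABA against PEG the count was 0 in roots with library sizes alone or only the libraries compared, and 1 in shoots with DESeq2.

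Some changes that did not pass the test turned sign. Sb08g023120 between control tissues was at log2 0.39 (H2O) and 0.33 (NaOH) with library sizes alone and at 0.39 and 0.32 with the exact test, which uses no scaling factors. With libraries left out, ranges were -0.32 to 0.29 for Sb01g011030 in ABA-treated roots, -0.001 to 0.37 for Sb03g042450 in ABA-treated shoots, and -0.22 to 0.11 for Sb01g011050 and -0.25 to 0.023 for Sb06g031350 in PEG-treated roots. The cause was not tested. For the pairs, leaving out single libraries and taking the 3 experiments as units were added after seeing the data. The chromosome 1 ratio difference ranged from -0.49 to 0.66 with ABA and from -0.51 to 0.32 with PEG in shoots. Between control tissues it was 7.36 to 8.22, 8.13 with at least 10 reads of both genes, 8.365 or 5.695 with another pseudocount and 7.72 with the 3 experiments as units. The chromosome 3 difference was 0.783 to 1.349, and 1.02 with the 3 experiments as units. With fewer than 6 pairs, or 3 experiments, an exact p under 0.05 cannot be reached. Depth limits mainly Sb01g011030 in roots.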
